A study of Homo sapiens with 6 samples.

Results

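Secreted proteoglycans are core proteins that leave the cell carrying sulfated glycosaminoglycan chains. The genes described here are 10 core protein genes of that kind: the testicans SPOCK1, SPOCK2 and SPOCK3, the basement membrane proteoglycans perlecan (HSPG2) and agrin (AGRN), the hyaluronan-binding proteoglycans versican (VCAN) and brevican (BCAN), the small leucine-rich proteoglycans biglycan (BGN) and decorin (DCN), and serglycin (SRGN). They were chosen by gene symbol, and all 10 were found among the 62703 genes of the deposited count table. The cells were A549, a line established from a human lung adenocarcinoma, and their RNA was sequenced after growth in S-AlgLung hydrogel (3 libraries) or in AlgLung hydrogel (3 libraries). For both groups the labels give culture in DMEM/F12 medium containing 10% fetal bovine serum plus antibiotics, and name no genetic change. The meaning of the S is not spelled out there; the title of the series concerns matrix sulfation, and the comparison asks how expression differs between the hydrogels. Every value comes from this single line. Nothing states that each replicate was a culture of its own, and the p-values therefore reflect only how far these libraries spread, which may be technical.

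The chains are built in the Golgi on serines of the core protein, starting with a linker that begins with xylose, and are then extended and sulfated as heparan sulfate or as chondroitin or dermatan sulfate. Perlecan and agrin carry mainly heparan sulfate and lie in basement membranes, versican and brevican carry chondroitin sulfate and bind hyaluronan, and testicans can carry both kinds of chain. Through their chains these proteins hold growth factors and other matrix proteins in the lung and elsewhere.

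Total counts per library were 24132875 to 26495444 in S-AlgLung and 22978408 to 23682120 in AlgLung. CPM stands for read counts scaled to library size with TMM factors, edgeR's correction for composition. The hydrogels lay apart on the first principal component of log2 CPM (40.3% of the variance), and S-AlgLung replicate 3 lay apart on the second (41.64, against -29.20 to 19.96 in the other libraries). MALAT1 and NEAT1, long noncoding RNAs of the nucleus, took 0.0264% of all counts in that library and 0.00398% to 0.00736% in the others. The 5 epithelial markers summed to 4450 to 12000 CPM in S-AlgLung and 10000 to 13200 CPM in AlgLung, and the lowest sum was that of S-AlgLung replicate 3. KRT8 and KRT18 gave most of the sum; in that library KRT8, KRT18 and KRT19 were lowest of all 6 libraries, while EPCAM (5.40 CPM) and CDH1 (99.0 CPM) were highest. The 6 fibroblast markers summed to 7.26 to 9.35 CPM in S-AlgLung and 7.86 to 8.36 CPM in AlgLung, and the 5 endothelial markers to 3.17 to 3.77 CPM in S-AlgLung and 2.38 to 3.73 CPM in AlgLung. With edgeR, 18544 genes were tested; a gene is called where its p, adjusted over all of them, is under 0.05. In S-AlgLung 584 genes (3.15%) were called higher and 369 (1.99%) lower, together 5.14%.

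The level of the 10 genes covered a wide range, from AGRN, among the more abundant transcripts of these cells, to BGN, for which no read was counted. Per kilobase of exon, AGRN averaged 51.9 CPM per kilobase over the 6 libraries, above 94.2% of all tested genes. HSPG2 followed at 23.8 and SRGN at 16.0 CPM per kilobase. BCAN was at 2.38, VCAN at 1.08 and SPOCK1 at 0.938 CPM per kilobase, and SPOCK3 and SPOCK2 were at 0.134 and 0.0742. AGRN lay above HSPG2 in every library of either hydrogel, whereas the levels per kilobase of HSPG2 (16.4 to 41.1) and SRGN (12.1 to 23.4) overlapped in S-AlgLung and not in AlgLung (17.1 to 20.3 for HSPG2 and 14.9 to 15.9 for SRGN). AGRN and HSPG2 together made up 92.6% to 96.3% of the summed CPM of the 10 genes in S-AlgLung and 93.8% to 95.4% in AlgLung. That sum was 1502, 1036 and 819.0 CPM in S-AlgLung replicates 1, 2 and 3, against 1036, 1019 and 844.1 CPM in AlgLung replicates 1, 2 and 3, so the groups overlapped. In bulk RNA, fewer cells that express a gene and less of its RNA per cell cannot be told apart.

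**Figure D1:**
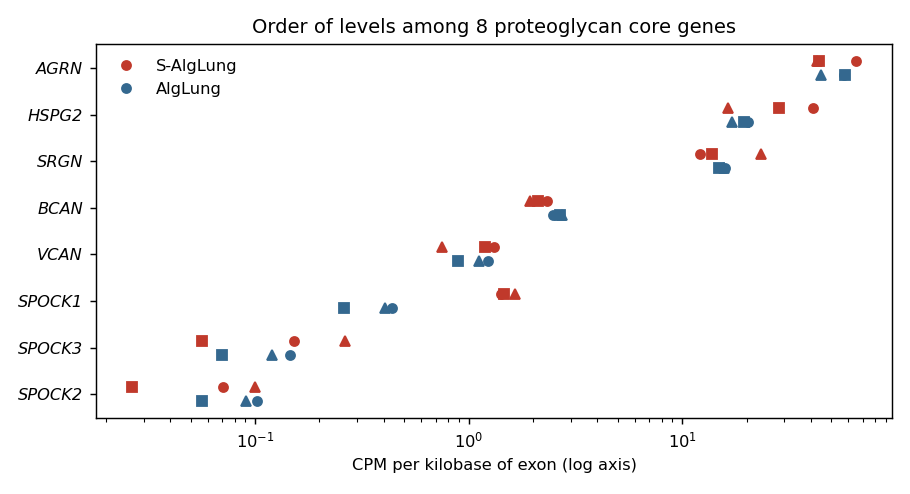
Levels of the 8 tested core protein genes as CPM per kilobase of exon on a log axis, 1 point per library, with S-AlgLung in red above AlgLung in blue and the marker shape giving the replicate (circle 1, square 2, triangle 3). AGRN is highest at 42.8 to 65.3 CPM per kilobase in S-AlgLung and 44.7 to 57.7 in AlgLung, and the 3 S-AlgLung points of SPOCK1 (1.42 to 1.64) lie right of its AlgLung points (0.261 to 0.439).

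The stretches of DNA before the start sites of HSPG2 and BGN are shown because these 2 genes stand at opposite ends of the order: perlecan was the second most abundant member and biglycan had no reads. RefSeq (GRCh38.p14) gave a start-site window for 6 of the 10 genes (HSPG2, BCAN, BGN, VCAN, SPOCK2 and SPOCK3), with none for SPOCK1, AGRN, DCN or SRGN. Each sequence is the 250 bases before the start, 5′ to 3′ on the strand of the gene, with GC boxes (GGGCGG or, on the other strand, CCGCCC) in capitals; the windows are chr1:21937311-21937560 on the minus strand for HSPG2 and chrX:153494730-153494979 on the plus strand for BGN.
HSPG2: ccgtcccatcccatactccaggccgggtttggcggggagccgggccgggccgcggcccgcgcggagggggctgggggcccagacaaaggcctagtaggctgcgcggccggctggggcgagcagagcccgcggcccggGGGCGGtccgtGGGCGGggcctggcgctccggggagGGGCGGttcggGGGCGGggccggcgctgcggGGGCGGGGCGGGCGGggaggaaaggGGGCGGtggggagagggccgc
BGN: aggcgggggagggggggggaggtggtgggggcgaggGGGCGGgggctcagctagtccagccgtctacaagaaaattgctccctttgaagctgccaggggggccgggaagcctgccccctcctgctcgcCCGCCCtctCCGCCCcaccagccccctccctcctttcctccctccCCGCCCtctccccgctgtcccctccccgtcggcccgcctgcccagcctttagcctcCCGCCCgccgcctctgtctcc
The HSPG2 window held 8 GC boxes, counting overlapping ones each, and the BGN window held 5. As many as 8 were found in 0.584% of the 35116 RefSeq windows of this length and as many as 5 in 4.15%, and 42.6% held at least 1. G and C made up 82.8% of the HSPG2 window and 74.0% of the BGN window, against a median of 58.0% over all windows. Neither window held a TATA box (TATAAA), found in 10.7% of all windows, or an AP-1 site (TGACTCA), found in 4.20%, on either strand. Both windows were thus rich in GC boxes at very different RNA levels. Among the windows not shown, that of BCAN held 5 GC boxes, that of VCAN 1 and those of SPOCK2 and SPOCK3 0. A relation of GC boxes to RNA level was not tested, and the letters alone do not show whether a factor binds there.

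Among the testicans, SPOCK1 rose in S-AlgLung. Testicans are secreted relatives of SPARC that carry a calcium-binding SPARC-like domain and a thyroglobulin-type domain, and testican-1, the product of SPOCK1, was first found in seminal plasma and is abundant in brain. SPOCK1 (ENSG00000152377, chromosome 5, 136975298 to 137598379, minus strand, GRCh38) had 8.80, 9.08 and 10.2 CPM in S-AlgLung replicates 1, 2 and 3, against 2.72, 1.62 and 2.52 CPM in AlgLung replicates 1, 2 and 3. All 3 S-AlgLung libraries were high and close together, and none overlapped AlgLung, as in 10.4% of all tested genes. The reads behind these values numbered 194, 215 and 286 in S-AlgLung and 71, 36 and 61 in AlgLung, and no other gene of the table shares exon bases with SPOCK1. The mean was 9.35 ± 0.722 CPM in S-AlgLung and 2.29 ± 0.588 CPM in AlgLung (SD, n = 3 each). The log2 fold change was 2.02 (SE 0.27, 95% interval 1.48 to 2.57), a 4.06-fold higher level with an adjusted p of 9.615e-06 in edgeR's quasi-likelihood test.

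SPOCK1 was the 1 gene called of the 8 members that had enough reads to test, where 3.15% of all tested genes were called higher, 1.99% lower and 5.14% in either direction. Of all tested genes it stood at rank 51 by p, and its fold change was at rank 88 among the genes called higher. It was called under each of 14 alternative settings, with a log2 fold change of 1.83 (without AlgLung replicate 2) to 2.12 (without AlgLung replicate 1) and an adjusted p of at most 0.00178. Without S-AlgLung replicate 3, the library that stood apart, it was 1.92 (adjusted p = 5.601e-11). Within S-AlgLung that library was 1.14 times the mean of the other 2 for SPOCK1. Per kilobase, SPOCK1 lay above VCAN in S-AlgLung (1.42 to 1.64 against 0.748 to 1.32) and below it in AlgLung (0.261 to 0.439 against 0.894 to 1.23), so the places of these genes in the order were exchanged between the hydrogels.

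The other testicans were expressed near the limit of counting. SPOCK2 (ENSG00000107742, chromosome 10, 72059034 to 72089032), the gene of testican-2, had 10, 4 and 18 reads in S-AlgLung (0.453, 0.169 and 0.640 CPM), against 17, 8 and 14 reads in AlgLung (0.652, 0.360 and 0.579 CPM). SPOCK3 (ENSG00000196104, chromosome 4, 166733384 to 167234796), the gene of testican-3, had 15, 6 and 33 reads in S-AlgLung (0.680, 0.253 and 1.17 CPM), against 17, 7 and 13 reads in AlgLung (0.652, 0.315 and 0.538 CPM). For both genes the groups overlapped, and S-AlgLung replicate 2 was the lowest and S-AlgLung replicate 3 the highest S-AlgLung library. The log2 fold change in edgeR was -0.32 for SPOCK2 (95% interval -1.35 to 0.71, adjusted p = 0.866). For SPOCK3 it was 0.49 (-0.53 to 1.51, adjusted p = 0.747). The interval of SPOCK1 (1.48 to 2.57) overlapped that of SPOCK3 and lay above that of SPOCK2. The difference between testicans in their response was not tested. Without S-AlgLung replicate 3, SPOCK3 was at -0.17 and SPOCK2 at -0.82, neither called.

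**Figure D2:**
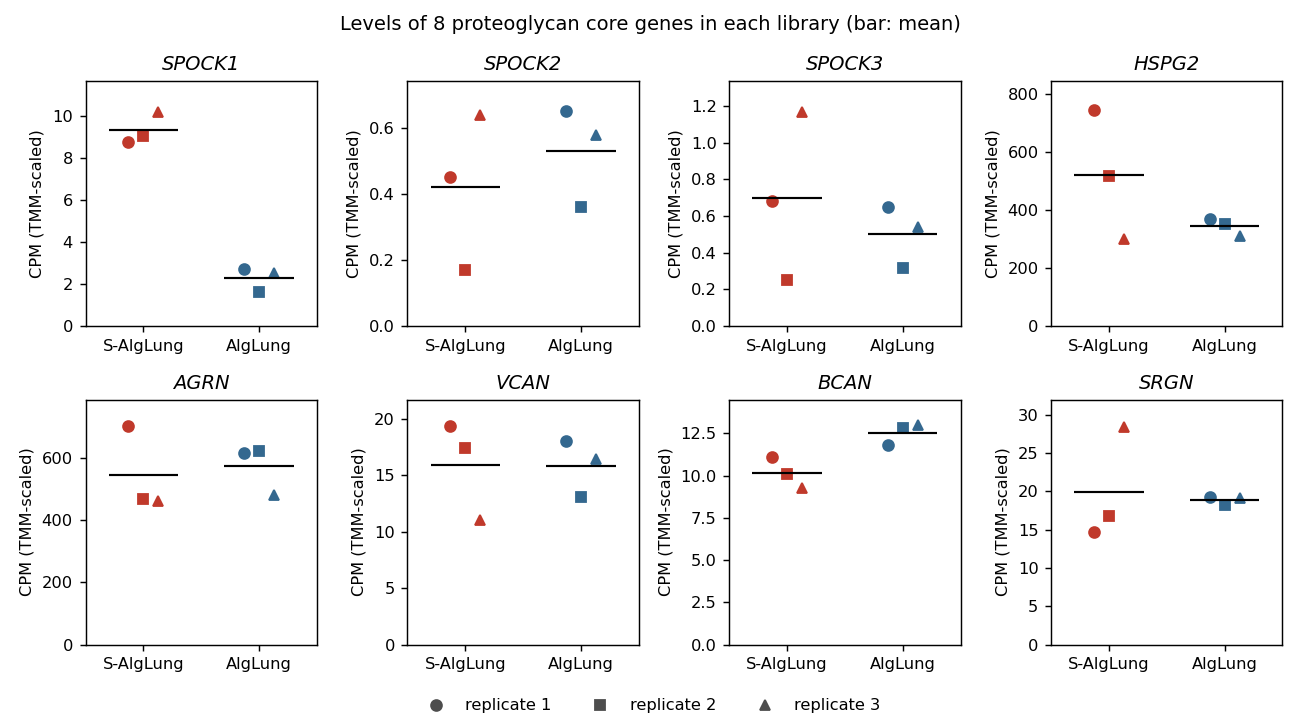
TMM-scaled CPM of the 8 tested genes in each library, with S-AlgLung (red) left of AlgLung (blue), marker shapes for replicates and a bar at the mean of each group; each panel has its own axis from 0. SPOCK1 is higher in all 3 S-AlgLung libraries, HSPG2 is high in S-AlgLung replicates 1 and 2 (744 and 515 CPM) and not in replicate 3 (298 CPM), and SRGN is highest in S-AlgLung replicate 3 (28.4 CPM).

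Perlecan was higher in 2 of the 3 S-AlgLung libraries and was not called. HSPG2 (ENSG00000142798, chromosome 1, 21822244 to 21937310, minus strand) encodes this large multidomain core protein of basement membranes. It had 744, 515 and 298 CPM in S-AlgLung replicates 1, 2 and 3, against 367, 352 and 311 CPM in AlgLung replicates 1, 2 and 3. Replicates 1 and 2 of S-AlgLung lay above all AlgLung libraries, as was so for 19.1% of all tested genes, and replicate 3 lay below all of them. The coefficient of variation was 43.0% in S-AlgLung and 8.58% in AlgLung. The mean was 519 ± 223 CPM in S-AlgLung and 343 ± 29.5 CPM in AlgLung (SD, n = 3 each). The log2 fold change was 0.59 (SE 0.29, 95% interval 0.01 to 1.18), with an unadjusted p of 0.0461 and an adjusted p of 0.323 in edgeR's test over all genes; 14.9% of all tested genes had an unadjusted p under 0.05. With S-AlgLung replicate 3 left out, HSPG2 passed the test at 0.84 (adjusted p = 0.00699), in a fit that called 4.75% of 18760 tested genes higher and 8.28% in either direction. Without S-AlgLung replicate 1 it was 0.24 (adjusted p = 0.809).

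LDLRAD2, a gene on the other strand, shares 2122 exon bases with HSPG2, or 11.7% of the HSPG2 exon length, and had 16.2% of its reads. LDLRAD2 stood at 120, 74.0 and 56.4 CPM in S-AlgLung replicates 1, 2 and 3, against 59.0, 57.2 and 51.6 CPM in AlgLung replicates 1, 2 and 3. Its S-AlgLung libraries thus ran in the same order as those of HSPG2. So did those of AGRN, VCAN and BCAN, which share no exon bases with HSPG2, but not those of the other tested members. No source used here gives the strand setting of the counting, so reads in the shared bases cannot be assigned to one strand. The part of LDLRAD2 in the HSPG2 values was not tested.

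Agrin, the other heparan sulfate proteoglycan of basement membranes and an organiser of the neuromuscular junction, showed no called difference. AGRN (ENSG00000188157, chromosome 1, 1020120 to 1056118, plus strand) had 703, 468 and 461 CPM in S-AlgLung replicates 1, 2 and 3, against 615, 621 and 481 CPM in AlgLung replicates 1, 2 and 3. The groups overlapped, with S-AlgLung replicate 1 the highest of the 6 libraries. The log2 fold change was -0.07 (SE 0.26, 95% interval -0.61 to 0.47, adjusted p = 0.950), an interval that runs from 0.653 to 1.38 times the AlgLung level. A gene without a symbol on the same strand, ENSG00000242590, shares 402 exon bases with AGRN and had 10.1% of its reads. Per kilobase, the ratio of HSPG2 to AGRN was 0.629, 0.654 and 0.384 in S-AlgLung replicates 1, 2 and 3, against 0.355, 0.337 and 0.383 in AlgLung replicates 1, 2 and 3. Replicate 3 of S-AlgLung thus resembled AlgLung in this ratio while the other S-AlgLung libraries lay well above it, a comparison chosen after the values were seen.

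The hyaluronan-binding proteoglycans stood below the middle of the tested genes. Per kilobase, BCAN lay above 44.6% of all tested genes and VCAN above 28.4%, against 25.7% for SPOCK1. VCAN (ENSG00000038427, chromosome 5, 83471618 to 83582303), a large chondroitin sulfate proteoglycan of provisional matrix, had 19.3, 17.4 and 11 CPM in S-AlgLung, against 18.0, 13.1 and 16.4 CPM in AlgLung. The groups overlapped and their means were 15.9 ± 4.36 CPM in S-AlgLung and 15.8 ± 2.49 CPM in AlgLung (SD, n = 3 each), with a 95% interval of the log2 fold change of -0.48 to 0.48. BCAN (ENSG00000132692, chromosome 1, 156641390 to 156659532), a proteoglycan known from the perineuronal matrix of the brain, had 11.1, 10.1 and 9.24 CPM in S-AlgLung, against 11.8, 12.8 and 13.0 CPM in AlgLung. All 3 S-AlgLung libraries lay below all AlgLung libraries, which was so for 8.05% of all tested genes (16.3% for replicates 1 and 2 alone), but the gene was not called (log2 fold change -0.31, SE 0.22, adjusted p = 0.581).

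The BCAN values are uncertain because of its neighbours. ENSG00000272405, a gene without a symbol on the other strand, shares 162 exon bases with BCAN and had 2.97 times its reads, and BCAN-AS2, also on the other strand, shares 354 exon bases and had 62.4% of its reads. The first stood at 34.5, 31.0 and 27.5 CPM in S-AlgLung, against 36.2, 35.9 and 36.7 CPM in AlgLung. BCAN-AS2 stood at 6.44, 6.0 and 4.90 CPM in S-AlgLung, against 9.01, 7.19 and 8.86 CPM in AlgLung. Both neighbours were thus lower in every S-AlgLung library, as BCAN was, and neither was called (adjusted p = 0.706 for ENSG00000272405 and 0.274 for BCAN-AS2). Which gene the shared reads come from cannot be told apart. VCAN-AS1, which shares 453 exon bases with VCAN on the other strand, had 10.9% of the VCAN reads and a log2 fold change of 0.02.

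Serglycin, a small core protein known from the granules of blood and endothelial cells, was highest in S-AlgLung replicate 3. SRGN (ENSG00000122862, chromosome 10, 69088103 to 69104805) had 14.7, 16.8 and 28.4 CPM in S-AlgLung replicates 1, 2 and 3, against 19.3, 18.2 and 19.1 CPM in AlgLung replicates 1, 2 and 3. The AlgLung libraries agreed to a coefficient of variation of 3.23%, whereas S-AlgLung ran from below to above them with one of 36.9%. The log2 fold change was 0.09 (95% interval -0.39 to 0.57, adjusted p = 0.934), and leaving out S-AlgLung replicate 3 turned it to -0.29 (adjusted p = 0.468). S-AlgLung replicate 3 was the highest of the 6 libraries for 29.0% of all tested genes, and for SPOCK1, SPOCK3 and SRGN among the tested members. The 6 leukocyte markers summed to 48.0 to 74.2 CPM in S-AlgLung and 32.6 to 39.4 CPM in AlgLung, with the lowest S-AlgLung sum in replicate 3, where SRGN was highest. Both leukocyte markers with enough reads to test were called higher. CD14 gave most of the sum, at 64.7, 69.7 and 42.8 CPM in S-AlgLung, against 30.3, 37.5 and 30.5 CPM in AlgLung (log2 fold change 0.85, adjusted p = 0.0225). ITGAM had 3.81, 4.22 and 5.15 CPM in S-AlgLung, against 2.72, 1.89 and 2.07 CPM in AlgLung (0.98, adjusted p = 0.0405). Others were near 0: PTPRC and CD3E had no reads in 5 libraries and at most 0.211 CPM in S-AlgLung replicate 2, and CSF1R reached 0.0711 CPM in S-AlgLung and 0.0828 CPM in AlgLung. The part of such cells in the SRGN values was not tested.

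Biglycan and decorin, small leucine-rich proteoglycans of fibrous connective tissue, had at most 1 read in all. BGN (ENSG00000182492, chromosome X, 153494980 to 153509546) had 0 reads in each of the 6 libraries, which allows a level of up to 0.107 to 0.136 CPM in an S-AlgLung library and 0.115 to 0.135 CPM in an AlgLung library (3 reads, counting error only). DCN (ENSG00000011465, chromosome 12, 91140484 to 91183217), the gene of decorin, a collagen-binding proteoglycan, had 0, 0 and 1 reads in S-AlgLung and 0 reads in each AlgLung library. Neither gene passed the filter on low counts, so neither was tested with edgeR, and no fold is given. An exact permutation test of DCN, two-sided, gave p = 1. With 1 read in 1 library every split of 3 against 3 gives the same size of difference, so this p was fixed beforehand.

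**Figure D3:**
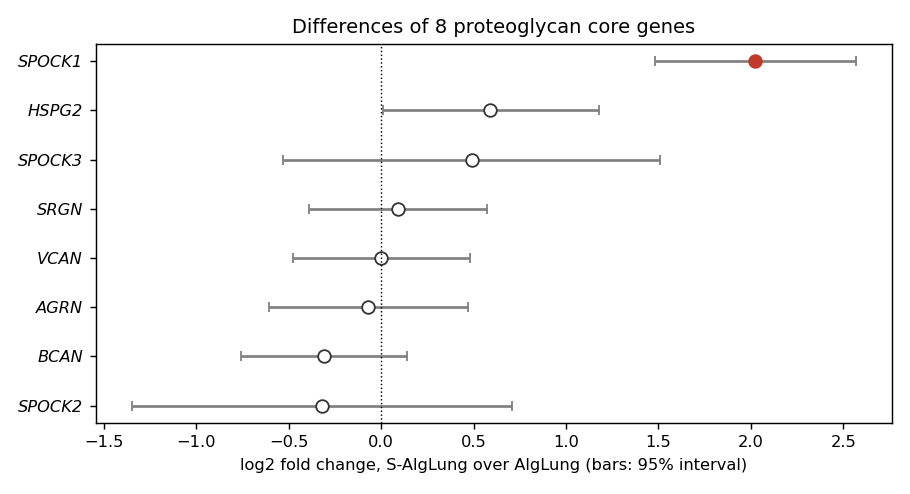
Log2 fold changes of S-AlgLung over AlgLung for the 8 tested genes with 95% intervals from edgeR, not adjusted for the number of genes; the filled red point was called at an adjusted p under 0.05 and open points were not. The interval of SPOCK1 (1.48 to 2.57) lies far from 0, that of HSPG2 just clears it (0.01 to 1.18), and those of SPOCK2 and SPOCK3 are the widest.

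Of the 8 tested members, 4 had a log2 fold change above 0, where 53.4% of all tested genes did, and their median was 0.04 against 0.03 over all tested genes. The hydrogels' values did not overlap in 2 members, SPOCK1 and BCAN, where this held for 18.4% of all tested genes. The choice of 1 library mattered most for the members whose S-AlgLung libraries spread widely. HSPG2 ran from 0.24 to 0.84, SPOCK3 from -0.17 to 0.88, SPOCK2 from -0.82 to 0.04 and SRGN from -0.29 to 0.26 as libraries were left out in turn.

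**Figure D4:**
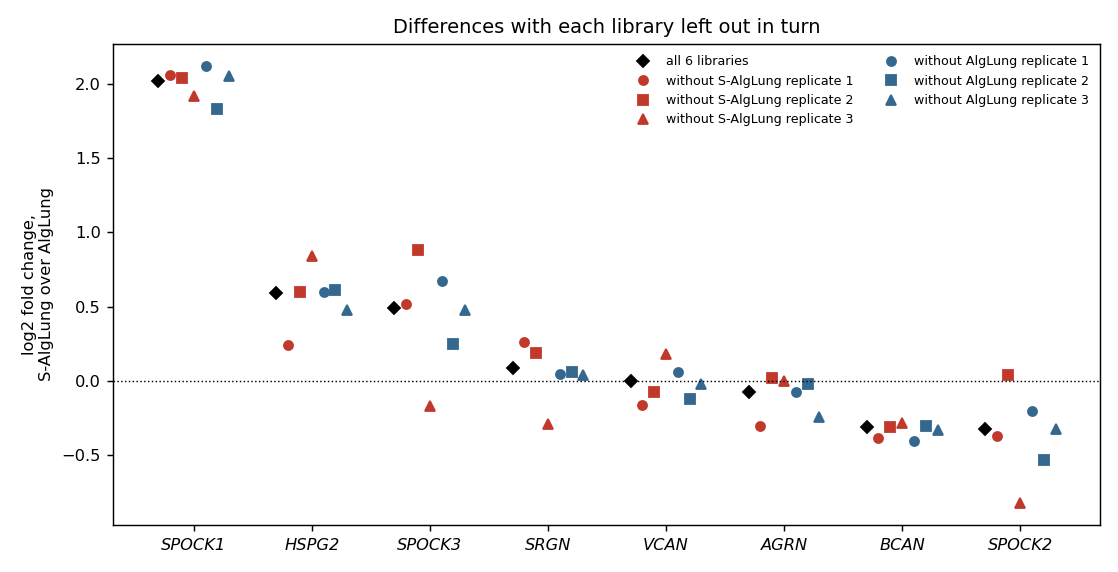
Log2 fold change of S-AlgLung over AlgLung for the 8 tested genes with all 6 libraries (black diamond) and with each library left out in turn (red, an S-AlgLung library left out; blue, an AlgLung library). SPOCK1 stays between 1.83 and 2.12, and leaving out S-AlgLung replicate 3 moves HSPG2 to 0.84, SPOCK3 to -0.17 and SRGN to -0.29.

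For SPOCK1, the genes whose values ran most alike over the 6 libraries were COL11A1 (Pearson r = 0.993), TNFSF10 (0.992), ENPP1 (0.991), FMO5 (0.990) and FER1L6-AS2 (0.989), of 11769 genes with a symbol and a mean log2 CPM of at least 2. COL11A1 encodes a fibrillar collagen chain and TNFSF10 the death ligand TRAIL. ENPP1, a membrane enzyme that splits extracellular ATP into AMP and pyrophosphate, had 6.39, 5.49 and 5.93 CPM in S-AlgLung, against 2.45, 1.62 and 2.48 CPM in AlgLung. All 5 were higher in each S-AlgLung library than in each AlgLung library, as 10.4% of all tested genes were. This largely follows from picking genes that run like SPOCK1, which is split in the same way. For HSPG2 the genes most alike were MUC1 (0.998), RNF208 (0.995), CITED4 (0.993), ZDHHC1 (0.993) and KCNJ11 (0.993). MUC1, a membrane mucin, had 98.9, 66.5 and 34.3 CPM in S-AlgLung, against 45.2, 40.6 and 37.5 CPM in AlgLung. It was thus high in the same S-AlgLung libraries as HSPG2 and lowest in replicate 3, the likeness for which it was picked. Genes that share exon bases had 181% of the reads of FMO5 (CHD1L), 680% of those of FER1L6-AS2 (FER1L6) and 188% of those of MUC1 (a gene without a symbol), so these 3 are uncertain. These correlations rest on 6 libraries in 2 groups; they describe likeness and carry no test.

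Other genes of the pathway were taken from 11 lists of 136 genes, of which 87 had enough reads to test; 3 were called higher and 6 lower, or 10.3% where 5.14% of all tested genes were called. The lists were chosen with earlier results of these data known, so these shares do not test the pathway. The median log2 fold change over the 87 was 0.03, as over all tested genes. The enzymes that build the chains gave no call. None of 9 linker genes, 14 tested chondroitin and dermatan sulfate genes or 11 tested heparan sulfate genes was called in edgeR, with medians of -0.04, 0.01 and 0.09. XYLT2, which adds the first xylose to the core protein, averaged 68.1 ± 5.69 CPM in S-AlgLung and 55.5 ± 6.77 CPM in AlgLung (SD, n = 3 each; log2 fold change 0.29, adjusted p = 0.612), and its relative XYLT1 was under 1 CPM on average in both (-0.83, adjusted p = 0.429). CHPF2, a chondroitin polymerising factor, was at 0.35 (adjusted p = 0.563). HS3ST3B1, a heparan sulfate 3-O-sulfotransferase, was at -0.59 (adjusted p = 0.419). Without S-AlgLung replicate 3, UST, the uronyl 2-O-sulfotransferase, and EXTL2 were called lower in edgeR, at -1.81 and -0.86 (adjusted p = 0.0351 and 0.0205). With all libraries they were at -1.18 and -0.61 (0.248 and 0.262). The fit without that library called 8.28% of 18760 tested genes in either direction. UST was near the limit of counting, with averages of 0.326 CPM in S-AlgLung and 0.756 CPM in AlgLung. It had 7 and 3 reads in S-AlgLung replicates 1 and 2.

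In sulfate supply and removal, 1 gene of each list was called. SLC26A1, a sulfate and oxalate exchanger, was higher in S-AlgLung at 20.4, 15.6 and 10.3 CPM, against 8.43, 8.54 and 9.06 CPM in AlgLung (log2 fold change 0.83, SE 0.24, adjusted p = 0.0395). It no longer passed without S-AlgLung replicate 1 (adjusted p = 0.315) or AlgLung replicate 1 (0.199), 2 (0.162) or 3 (0.154), and with total-count scaling (0.206), DESeq2 size factors (0.0522) and limma-voom (0.0862). IDUA, on the other strand, shares 534 exon bases with SLC26A1 and had 458.3% of its reads. The other 7 genes of sulfate activation and transport were not called; SLC26A2, the main sulfate transporter of cartilage, was at -0.60 (adjusted p = 0.160), and TIGD6 on the other strand, which shares 246 exon bases, had 36.7% of its reads. GALNS, a lysosomal sulfatase that acts on keratan and chondroitin sulfate, was lower at 41.1 ± 8.74 CPM in S-AlgLung and 71.4 ± 7.74 CPM in AlgLung (SD, n = 3 each; log2 fold change -0.80, SE 0.23, adjusted p = 0.0347). It missed the threshold once S-AlgLung replicate 2 (adjusted p = 0.0667) was left out or AlgLung replicate 1 (0.0642), 2 (0.164) or 3 (0.0972) was, and TRAPPC2L on the other strand had 52.0% of its reads while sharing 27 exon bases. SULF2, which removes sulfate from heparan sulfate outside the cell, was at 0.41 (adjusted p = 0.40), but NCOA3 on the other strand shares 247 exon bases with it and had 526% of its reads.

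Of 13 core protein proteases 7 were tested, of which 1 was called higher and 1 lower. Testican-1 and testican-3 are known to inhibit membrane-type metalloproteases such as MMP14, an activator of MMP2. A link between SPOCK1 and the RNA levels of MMP14 or MMP2 was not tested. MMP2 fell to 2.11 ± 0.360 CPM in S-AlgLung, against 11.8 ± 1.58 CPM in AlgLung (SD, n = 3 each), and MMP14 was higher at 4.39 ± 0.599 CPM in S-AlgLung, against 2.16 ± 0.454 CPM in AlgLung (adjusted p = 2.901e-07 for MMP2 and 0.0306 for MMP14). MMP14 did not pass when S-AlgLung replicate 1 (adjusted p = 0.0690) or AlgLung replicate 1 (0.221), 2 (0.0953) or 3 (0.0876) was left out, nor with total-count scaling (0.145). The other 5 tested proteases were not called, among them ADAMTS9, which cleaves versican, at 1.03 (adjusted p = 0.228) with averages of 0.930 CPM in S-AlgLung and 0.450 CPM in AlgLung.

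Among 8 tested genes related to hyaluronan or to versican and brevican, TNC, the gene of tenascin C, rose and HMMR fell. TNC had 11.2, 10.5 and 14.2 CPM in S-AlgLung, against 5.25, 2.65 and 4.01 CPM in AlgLung (log2 fold change 1.59, adjusted p = 1.561e-04). HMMR, which binds hyaluronan and the mitotic spindle, averaged 0.713 ± 0.106 CPM in S-AlgLung and 2.38 ± 0.996 CPM in AlgLung (SD, n = 3 each; log2 fold change -1.74, adjusted p = 0.00409), and missed the threshold once AlgLung replicate 1 was left out (adjusted p = 0.0662). Among 8 tested partners of agrin and perlecan, COL4A2, a chain of basement membrane collagen, fell by 1.31 on the log2 scale (adjusted p = 0.00605). With AlgLung replicate 2 left out it was still lower, at -1.18, but no longer called (adjusted p = 0.0616). ITGA2, a collagen receptor subunit that also binds perlecan, had a log2 fold change of -0.89 (adjusted p = 0.0171). It stayed lower but lost its call with AlgLung replicate 1 (-0.77, adjusted p = 0.123) or 3 (-0.92, adjusted p = 0.0623) left out. LRP4, the agrin receptor, was at 0.06 (adjusted p = 0.957), and MUSK, its signalling partner at the neuromuscular junction, had too few reads to test.

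None of the tested proteoglycans outside the 10 genes was called, where 5.14% of all tested genes were. With so few genes tested, the lack of a call is near that share. Of 17 other secreted cores, 5 were tested and 12 had too few reads; TSKU, the gene of tsukushi, had 1020, 752 and 660 CPM in S-AlgLung, against 441, 594 and 508 CPM in AlgLung. Its groups did not overlap, yet it was not called (log2 fold change 0.66, SE 0.27, adjusted p = 0.205), but with S-AlgLung replicate 3 left out it passed at 0.75 (adjusted p = 0.0257). PRG4, the gene of lubricin, was at 0.62 (adjusted p = 0.263), and is uncertain because TPR, on the other strand, shares 670 exon bases with it and had 1752% of its reads. None of 7 tested membrane proteoglycan cores was called, with a median of 0.02, GPC6 at 0.55 and GPC1 at -0.32 (adjusted p = 0.262 and 0.646). Of the SPARC family, to which the testicans are related, 3 were tested. SPARC itself was at 0.09 (adjusted p = 0.941), and FSTL1, a follistatin-like secreted protein, was lower at 8.37 ± 1.65 CPM in S-AlgLung and 15.2 ± 1.94 CPM in AlgLung (SD, n = 3 each; log2 fold change -0.86, adjusted p = 0.0222). FSTL1 did not pass when S-AlgLung replicate 1 (adjusted p = 0.149) or AlgLung replicate 1 (0.0734) or 3 (0.0976) was left out, nor with total-count scaling (0.0531).

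**Figure D5:**
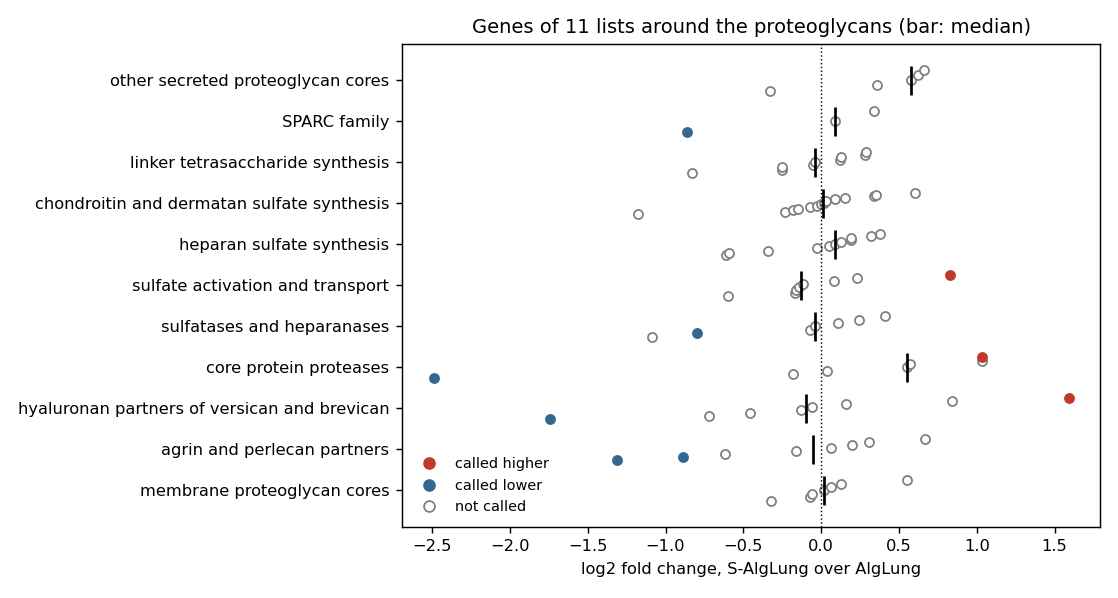
Log2 fold change of S-AlgLung over AlgLung for each tested gene of the 11 lists, 1 row per list, with a bar at the median of each list and filled points for called genes (red higher, blue lower). The lists of chain synthesis hold no filled point, and 9 genes are filled in all, from MMP2 at -2.49 to TNC at 1.59.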

How the data were processed

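The authors used STAR 2.7.3a, featureCounts and GRCh38, per the submitters' processing notes; the sources used here give neither strand setting nor annotation. The deposited table holds whole-number counts per gene, not normalized, and the exon length of each gene, per the file headers. AlgLung replicate 1 had 2 columns, which differed in 0 genes and were used as 1 sample. Of the 62703 IDs, 62625 matched the gene name table.

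Genes were kept with filterByExpr (minimum count 10), scaled with TMM factors and tested over all 6 libraries by quasi-likelihood in edgeR 4.0.16 (R 4.3.3), with no block and Benjamini-Hochberg adjustment over all 18544 tested genes. Differences are log2 of S-AlgLung over AlgLung; dividing their size by the root of F gave an approximate standard error. CPM per kilobase is the TMM-scaled CPM divided by exon length. Counting error limits genes under about 1 CPM. The scripts were tested on simulated counts with known changes.

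The members and lists were chosen with earlier results of these data known. Genes named are all members, up to 4 called genes by smallest p in each list (up to 2 where none was called), and the 5 genes most like SPOCK1 or HSPG2 by Pearson r of log2(CPM + 0.5). Genes outside this rule were named after their values were seen: the overlapping neighbours, SLC26A2, SULF2, ADAMTS9, LRP4, MUSK, SPARC, MALAT1 and NEAT1. CD14, ITGAM and the other cell type markers come from the marker lists; those named singly were picked after their values were seen. Alternatives tried were leaving out each library, a replicate block, limma-voom (limma 3.58.1), DESeq2 1.42.0 (its Wald test, and its size factors in edgeR), upper-quartile factors or total counts as scaling, no filter on low counts or one of 1 CPM on average, and an adjusted p under 0.01.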

Additional observations from a re-analysis of the deposited data

How the results depend on the processing

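The count of members called higher was 1, where 3.15% of all tested genes were called higher. Without S-AlgLung replicate 3 it was 2, where 4.75% were (1 to 2 as libraries were left out). None was called lower in any setting run, where 1.99% of all tested genes were called lower in the edgeR fit of all 6 libraries. In edgeR 2 of 8 tested members had an unadjusted p under 0.05, both higher. Of all tested genes 14.9% did, in either direction. SPOCK1 was called in all 14 alternatives and HSPG2 in 1. Over all genes, 584 were called higher and 369 lower. These counts were 333 higher with total counts only and 323 higher and 217 lower at an adjusted p under 0.01; as libraries were left out they ran from 289 to 891 higher and from 244 to 662 lower. Under total-count scaling the median log2 fold change of all genes shifted by -0.10, as did that of SPOCK1. VCAN ran from -0.16 to 0.18 with no call. Of 9 called genes named from the lists, 2 (MMP2 and TNC) were called in every alternative that gave a value. Same-numbered libraries deviated from their group means with correlations of 0.079, 0.358 and 0.091, against -0.396 to 0.23 for differently numbered ones. The labels state no block, so the numbers were not taken to pair the libraries, but these values do not exclude a pairing. With the number as a replicate block, 800 genes were called higher and 500 lower. In that fit the count of members called higher was 1 and SPOCK1 was at 2.04. Depth limits SPOCK2 and SPOCK3 most, with 4 to 33 reads per library.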
